A study of Mus musculus with 32 samples.

Results

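Granulocyte-macrophage progenitors (GMPs) of IL-5 transgenic (IL5T) mice were compared with those of wild-type (WT) mice to ask how constitutive IL-5 production alters transcription at this stage. The members are the 5 IL5T GMP and 3 WT GMP arrays, 8 of the 32 Illumina MouseWG-6 arrays of the study, chosen by sample title alone. In the IL5T mice IL-5 is made by T cells from a transgene under the CD2 promoter, and both genotypes were BALB/c mice aged 7 to 12 weeks. GMPs were sorted from marrow of femurs and tibiae as Lin- Sca-1- c-Kit+ CD34+ FcR+ cells, and by the study's methods also lacked IL-5Rα at the surface. Each array holds RNA of pooled mice. Whether the pools of a group shared mice is not given, so the p-values measure the spread between these arrays. In bulk RNA, fewer cells of a type and less RNA per cell cannot be told apart.

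IL5T GMP 1 to 3 were hybridized on beadchip version 1.1 (v1.1), and IL5T GMP 4 and 5 and all WT GMPs on version 2.0 (v2.0). The shift between versions was therefore estimated as a term of the limma fit from IL5T GMPs and IL5T common myeloid progenitors (CMPs), which were on both versions. By their array names, the progenitors on v1.1 came from a single run and those on v2.0 from another. The term thus holds version, run and pool differences together. The comparison was repeated within v2.0, where no such term is needed. Levels of single arrays are normalized log2 values with the version shift left in, whereas fitted differences have it taken out, so the difference of plain means need not equal the fitted one. Calls were made where the adjusted p, taken over the 24159 probes on both versions, was under 0.05. Between 9770 and 10195 of these probes were detected on the IL5T GMP arrays and between 9864 and 10293 on the WT GMP arrays. The SD of the difference between arrays of 1 group, over all probes, was 0.228 to 0.338 within a version and up to 0.595 across versions. The array name of IL5T CMP 2 in the deposited table reads as a GMP, against its title. Its Gp5 level of 9.45 lay among CMPs and not among GMPs, and it was kept as titled.

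GMPs give rise to neutrophils and monocytes, and eosinophil precursors (EoPs), which carry the IL-5 receptor, derive from the same compartment. IL-5 binds the receptor's alpha chain, encoded by Il5ra, and signals through the beta chain it shares with IL-3 and GM-CSF, which activates JAK2 and STAT5. STAT5 turns on feedback inhibitors such as Cish and Socs2. Eosinophil granules hold eosinophil peroxidase (Epx), the major basic proteins (Prg2 and Prg3) and the ribonucleases of the Ear family, and GATA factors are needed for the lineage.

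The promoters of Epx, Prg3 and Cish are shown because the results turn on these genes. They are RefSeq sequences of build GRCm38.p6, from 250 bases before to 50 after the start site, with capitals marking GATAA (the core of a GATA factor motif) or TTCNNNGAA (a STAT motif) on either strand. No overlap between the 2 motifs was found in them. Epx lies at chr11:87875487-87875786 (minus strand), Prg3 at chr2:84987965-84988264 (plus strand) and Cish at chr9:107296409-107296708 (plus strand).
Epx: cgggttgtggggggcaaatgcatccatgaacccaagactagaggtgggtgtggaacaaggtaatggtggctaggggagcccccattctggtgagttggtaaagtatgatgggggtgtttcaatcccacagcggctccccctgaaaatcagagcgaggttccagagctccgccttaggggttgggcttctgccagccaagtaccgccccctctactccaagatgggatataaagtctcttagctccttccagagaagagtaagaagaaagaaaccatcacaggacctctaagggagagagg
Prg3: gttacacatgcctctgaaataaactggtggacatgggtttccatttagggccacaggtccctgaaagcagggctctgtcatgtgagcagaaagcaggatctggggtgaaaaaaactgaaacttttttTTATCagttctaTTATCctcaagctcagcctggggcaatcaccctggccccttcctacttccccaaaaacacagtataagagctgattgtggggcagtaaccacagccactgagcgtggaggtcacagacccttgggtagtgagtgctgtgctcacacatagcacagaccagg
Cish: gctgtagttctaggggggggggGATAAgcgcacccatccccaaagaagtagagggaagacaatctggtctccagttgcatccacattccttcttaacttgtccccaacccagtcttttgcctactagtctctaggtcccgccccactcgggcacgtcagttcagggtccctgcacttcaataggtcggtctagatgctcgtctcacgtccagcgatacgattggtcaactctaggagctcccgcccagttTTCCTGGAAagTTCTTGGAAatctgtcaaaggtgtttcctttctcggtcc

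The Cish promoter held 2 STAT motifs with left ends at 0 and 11 from the start site, and 2 or more were found in 0.46% of 32851 promoters of the same length. The Prg3 promoter held 2 GATAA matches on the reverse strand, and 2 or more were found in 5.27% of promoters. At least 1 GATAA was found in 25.4% of promoters and at least 1 TTCNNNGAA in 8.3%. Neither string was found in the Epx window. A match is a description of letters and not of binding.

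Epx, Prg3 and Ear3, which encode eosinophil granule proteins, rose in IL5T GMPs, and few other genes passed the test. limma called 14 probes higher (0.0579% of those tested) and 4 lower (0.0166%), and 1153 probes had an unadjusted p under 0.05. Epx, Prg3 and both probes of Ear3 were among the higher, with Ldhc, Bcl2a1b, Sstr2, Map3k14, Rasl11b, Stx3 and 4 probes with no gene listed. The lower were Prxl2a, Crhr1, Mtus2 and Oas1g. With 1 probe per gene, 9 of 15187 genes were called higher (0.0593%) and 3 lower (0.0198%).

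Epx, which encodes the peroxidase held in the granule, was at 11.47, 11.46 and 11.48 in IL5T GMP 1 to 3, 12.35 and 12.54 in IL5T GMP 4 and 5, and 6.89, 8.67 and 7.67 in WT GMP 1 to 3. Every IL5T array lay above every WT array, on both versions, and WT GMP 2 was the highest of the WT arrays. With the version shift removed, groups of arrays did not overlap for 4.33% of genes and 4.33% of probes in the higher direction, and for 4.31% of genes and 4.05% of probes in the lower. The fitted difference was 5.75 ± 0.80 (log2, SE, limma adjusted p = 0.00111). The version term placed the IL5T mean at 13.49 on the v2.0 scale, above every measured GMP array. Within v2.0 it was 4.70 ± 0.81 and missed the threshold (limma adjusted p = 0.1).

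Prg3, an eosinophil-restricted homologue of major basic protein, was at 10.66, 10.11 and 10.62 in IL5T GMP 1 to 3, 11.87 and 11.76 in IL5T GMP 4 and 5, and 7.67, 8.87 and 7.89 in WT GMP 1 to 3. The groups did not overlap, and WT GMP 2 was again the highest WT array. The fitted difference was 4.72 ± 0.76 (limma adjusted p = 0.00665), within v2.0 it was 3.67 ± 0.71 (limma adjusted p = 0.183), and without WT GMP 3 the adjusted p was 0.0504. Prg2, major basic protein itself, was at 14.15, 14.24 and 14.43 in IL5T GMP 1 to 3, 13.92 and 13.89 in IL5T GMP 4 and 5, and 10.79, 12.94 and 11.85 in WT GMP 1 to 3. It was high in both genotypes, and on the IL5T arrays near the highest normalized value of 14.7. All IL5T arrays exceeded all WT arrays, yet the fitted difference of 2.78 ± 0.81 did not pass the test (limma adjusted p = 0.386).

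Ear3 is the platform's name for a gene of the eosinophil-associated ribonucleases, whose near-identical copies these probes may not separate. Its probe ILMN_1219174 was at 7.59, 7.37 and 7.51 in IL5T GMP 1 to 3, 11.67 and 12.24 in IL5T GMP 4 and 5, and 4.81, 5.64 and 4.86 in WT GMP 1 to 3. The v1.1 arrays read this probe lower than the v2.0 arrays in CMPs too, and all IL5T arrays exceeded all WT arrays. It was detected on 1 of 3 WT arrays. The fitted difference was 6.75 ± 0.57 (limma adjusted p = 1.55e-07), and it passed within v2.0 (6.85 ± 0.83, limma adjusted p = 0.011) and with any 1 GMP or IL5T CMP array left out. The second probe was at 12.78, 13.39 and 13.16 in IL5T GMP 1 to 3, 14.17 and 13.95 in IL5T GMP 4 and 5, and 8.01, 11.53 and 9.67 in WT GMP 1 to 3. Its WT values spread by more than 3 units with WT GMP 2 the highest, and its difference of 4.94 ± 0.88 (limma adjusted p = 0.0232) missed the threshold within v2.0 (adjusted p = 0.676).

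Of the 10 genes on the list of eosinophil granule proteins 4 were measured by a probe on both versions. Epx and Prg3 were called higher, Prg2 was not called, and Rnase2b was undetected on all 8 arrays. The median difference was 3.75, against -0.004 for all genes. The summed level of the list was 14.47 to 14.70 in IL5T GMPs and 11.05 to 13.10 in WT GMPs, with WT GMP 2 the highest of the latter. Without WT GMP 2 Epx differed by 6.21 and Prg3 by 5.09, and both stayed called.

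**Figure D1:**
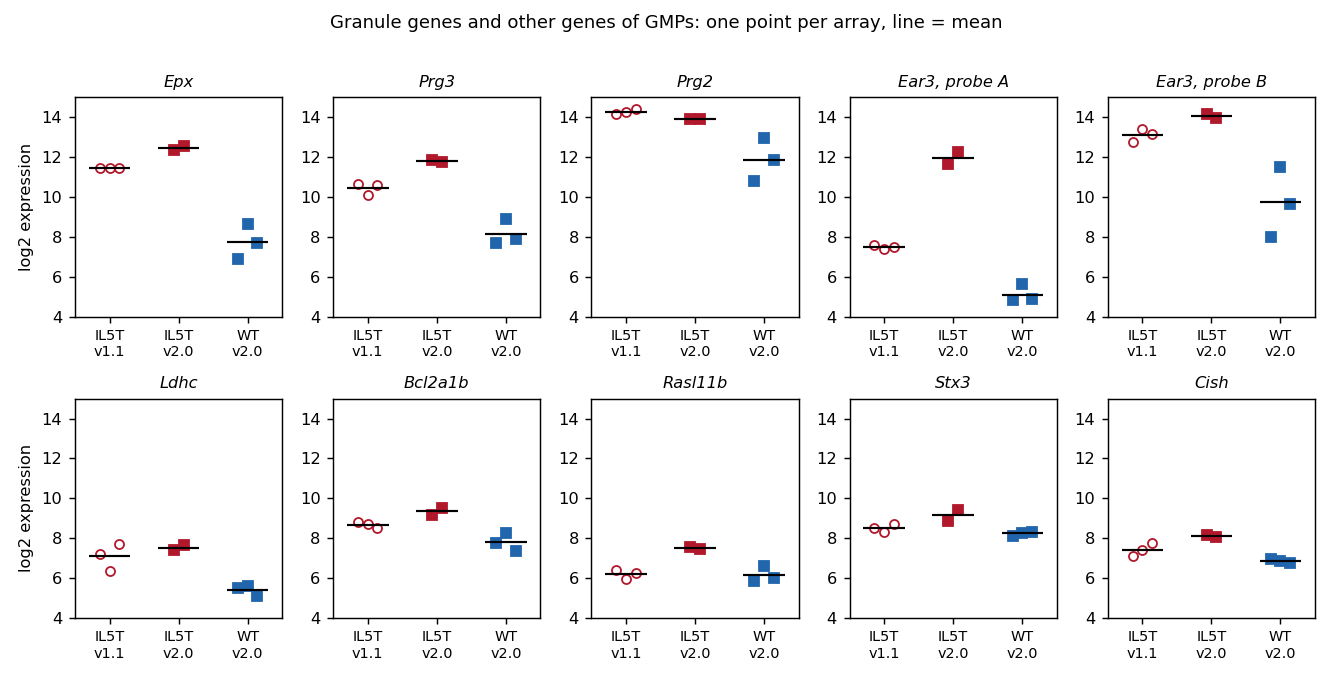
Normalized log2 expression (y axis) of 10 genes or probes on each GMP array, for IL5T arrays on v1.1 and v2.0 and WT arrays on v2.0, with 1 point per array and a line at the mean; probe A of Ear3 is ILMN_1219174. All IL5T arrays exceed all WT arrays for Epx (11.46 to 12.54 against 6.89 to 8.67), Prg3 and Prg2. The WT points of Prg2 reach 12.94, and its lowest IL5T point is 13.89.

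Outside the granule list, the other genes called higher differed in level and size. Ldhc, the lactate dehydrogenase subunit best known from sperm, was at 7.21, 6.36 and 7.69 in IL5T GMP 1 to 3, 7.39 and 7.66 in IL5T GMP 4 and 5, and 5.47, 5.57 and 5.11 in WT GMP 1 to 3. The groups did not overlap, and the difference was 2.58 ± 0.42 (limma adjusted p = 0.00665; adjusted p = 0.0591 without WT GMP 3). Bcl2a1b, of a family of anti-apoptotic BCL2 relatives with near copies, was at 8.80, 8.70 and 8.52 in IL5T GMP 1 to 3, 9.16 and 9.53 in IL5T GMP 4 and 5, and 7.76, 8.24 and 7.34 in WT GMP 1 to 3, a difference of 2.02 ± 0.36 (limma adjusted p = 0.0232). All 5 IL5T values exceeded the 3 WT values.

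Map3k14, the NF-kappaB-inducing kinase of the non-canonical pathway, was at 8.28, 8.36 and 8.45 in IL5T GMP 1 to 3, 8.39 and 8.19 in IL5T GMP 4 and 5, and 7.61, 7.73 and 7.77 in WT GMP 1 to 3. Both groups were tight and apart, by 0.65 ± 0.12 (limma adjusted p = 0.0302). Stx3, a SNARE protein of vesicle fusion, was at 8.53, 8.31 and 8.72 in IL5T GMP 1 to 3, 8.88 and 9.40 in IL5T GMP 4 and 5, and 8.10, 8.27 and 8.32 in WT GMP 1 to 3. IL5T GMP 2 fell within the WT range as measured, and the fitted difference was 0.92 ± 0.18 (limma adjusted p = 0.0347).

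Rasl11b, a small GTPase of the Ras family, was at 6.42, 5.95 and 6.23 in IL5T GMP 1 to 3, 7.54 and 7.43 in IL5T GMP 4 and 5, and 5.86, 6.62 and 6.00 in WT GMP 1 to 3. Only the v2.0 arrays of IL5T GMPs stood above WT as measured, and the fitted difference of 1.58 ± 0.29 (limma adjusted p = 0.0302) rests on the version term for the others. Sstr2, a somatostatin receptor, was at 5.46, 5.14 and 5.90 in IL5T GMP 1 to 3, 6.78 and 5.94 in IL5T GMP 4 and 5, and 5.20, 4.95 and 5.54 in WT GMP 1 to 3. Its arrays overlapped as measured and its fitted difference was 1.25 ± 0.23 (limma adjusted p = 0.0283). Within v2.0 none of these 6 genes passed the test, with limma adjusted p from 0.152 for Ldhc to 0.753 for Bcl2a1b. With 1 GMP or IL5T CMP array left out in turn, Stx3 stayed called in 5 of 13 fits and Map3k14 and Rasl11b in 8. Sstr2 stayed called in 10, Bcl2a1b in 11 and Ldhc in 12.

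Of the 4 unnamed probes called higher, ILMN_1220253 was at 8.55, 7.58 and 7.11 in IL5T GMP 1 to 3, 10.27 and 10.38 in IL5T GMP 4 and 5, and 5.04, 5.79 and 6.00 in WT GMP 1 to 3. It differed by 4.62 ± 0.36 (limma adjusted p = 4.75e-08), the smallest p of the comparison, and by 4.71 ± 0.40 within v2.0 (limma adjusted p = 0.000401). This probe was higher in IL5T than in WT also in EoPs (by 5.01 ± 0.35) and CMPs (by 4.41 ± 0.36). The unnamed ILMN_2524992 differed by 6.88 ± 0.72 (limma adjusted p = 7.82e-06), and within v2.0 by 6.11 ± 0.78 (limma adjusted p = 0.0163). ILMN_1232396 and ILMN_2731735 differed by 6.01 ± 0.95 and 4.97 ± 0.94 (limma adjusted p = 0.00665 and 0.0347). Both missed the threshold within v2.0 (adjusted p = 0.409 and 0.883). Their WT values spread widely, with WT GMP 2 the highest (10.9 and 11.8). With 1 GMP or IL5T CMP array left out, ILMN_2731735 stayed called in 5 of 13 fits.

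The 4 named probes called lower differed by about 1 log2 unit or less. With 1 GMP or IL5T CMP array left out in turn, Prxl2a stayed called in 7 of 13 fits, Mtus2 in 4, Oas1g in 3 and Crhr1 in 3. Prxl2a, a peroxiredoxin-like protein, was at 9.13, 8.96 and 9.16 in IL5T GMP 1 to 3, 9.05 and 8.75 in IL5T GMP 4 and 5, and 9.44, 9.53 and 9.73 in WT GMP 1 to 3. All IL5T arrays lay below all WT arrays, with a fitted difference of -0.65 ± 0.12 (limma adjusted p = 0.0347). Oas1g, of the interferon-induced oligoadenylate synthetases with close copies, was at 8.81, 8.57 and 8.19 in IL5T GMP 1 to 3, 7.49 and 7.25 in IL5T GMP 4 and 5, and 8.46, 8.78 and 8.52 in WT GMP 1 to 3. IL5T GMP 3 to 5 lay below all WT arrays as measured and IL5T GMP 1 and 2 did not, with a difference of -1.03 ± 0.20 (limma adjusted p = 0.042) and of -1.22 ± 0.17 within v2.0 (limma adjusted p = 0.0248). The list of interferon response genes had 0 of 18 measured members called, against 0.0593% of all genes higher and 0.0198% lower, and a median of -0.16.

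Mtus2, a microtubule-associated protein, was at 5.84, 5.70 and 5.80 in IL5T GMP 1 to 3, 5.00 and 5.35 in IL5T GMP 4 and 5, and 5.89, 6.33 and 6.13 in WT GMP 1 to 3. It was undetected on both v2.0 arrays of IL5T GMPs, and differed by -0.90 ± 0.18 (limma adjusted p = 0.0405). Crhr1, the receptor of corticotropin-releasing hormone, was detected on the 3 WT arrays (5.53, 5.57 and 5.44) and on none of the 5 IL5T arrays, where it read 4.62 to 5.04, and it differed by -0.57 ± 0.11 (limma adjusted p = 0.0347). As a bound it was at least 1.06-fold lower on v2.0, where a group without detection is placed at the dimmest detected signal of its arrays, or at its own signal if higher. The brighter probe of Crhr1 differed by 0.06 (limma adjusted p = 1).

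**Figure D2:**
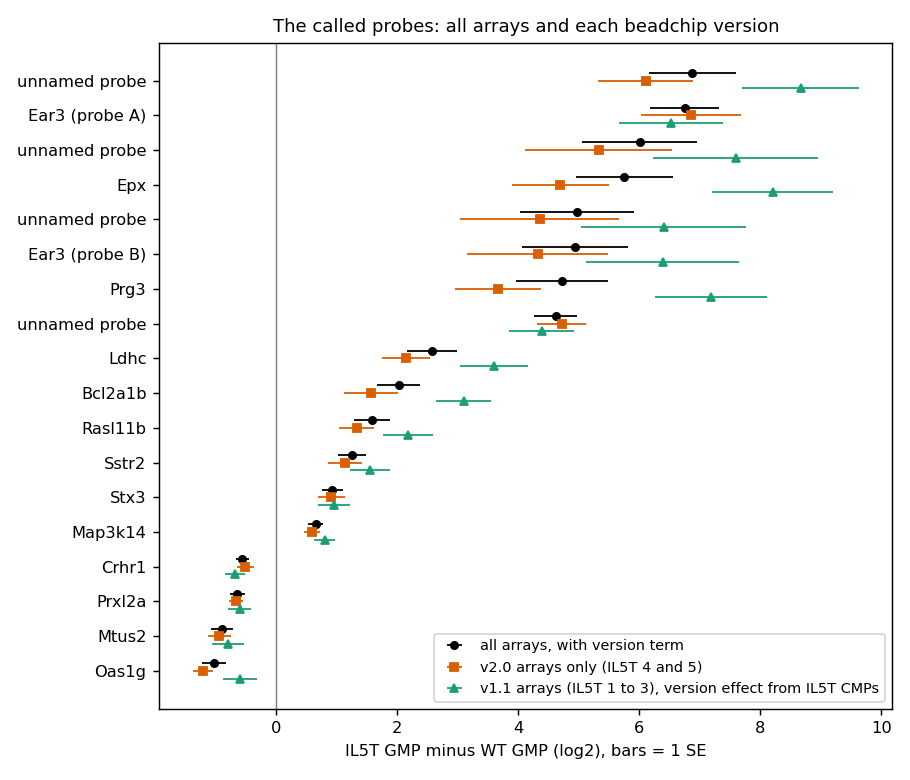
Fitted difference of IL5T GMP minus WT GMP (x axis, log2, bars of 1 SE) for the 18 called probes (y axis), from all arrays with a version term, from v2.0 arrays, and from v1.1 arrays with the version shift of IL5T CMPs. The 3 estimates for Epx spread from 4.70 (v2.0) to 8.20 (v1.1), while those of Ear3 probe A lie between 6.52 and 6.85.

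The estimates for Epx and Prg3 differed between versions. In IL5T CMPs Epx had a mean of 7.20 on v1.1 and 11.68 on v2.0, a gap of several units that IL5T GMPs (11.47 and 12.44) did not show. The shift of Epx was 3.51 more in CMPs than in GMPs, with no call (limma adjusted p = 0.858). Over all probes the shift differed between CMPs and GMPs for 2 (0.00828%), Ctsh and Ooep, each at a limma adjusted p of 0.0395. The v1.1 arrays alone, set against WT through the shift of IL5T CMPs, gave a difference of 8.20 for Epx and 7.19 for Prg3. The v2.0 values of 4.70 and 3.67 need no shift, and both versions had the same direction for all 18 called probes. Those probes were chosen by the fit that pools both versions, and both estimates use the same WT arrays. The shared direction is therefore no independent check.

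Within v2.0, limma called 11 probes (0.0455%), 6 higher and 5 lower. Of these 4 were also called with all arrays, namely 1 probe of Ear3, Oas1g and the unnamed ILMN_1220253 and ILMN_2524992. The others were Wipi1, Ooep and 1 unnamed probe higher, and Gp5, Cavin2, Plau and Rpp14 lower.

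Wipi1, which binds phosphoinositides at the forming autophagosome, was at 7.33, 7.65 and 7.40 in IL5T GMP 1 to 3, 7.50 and 7.68 in IL5T GMP 4 and 5, and 4.73, 4.73 and 5.14 in WT GMP 1 to 3. It was detected on all 5 IL5T arrays and on none of the WT arrays. Within v2.0 it was at least 4.54-fold higher in IL5T GMPs (log2 difference 2.73 ± 0.18, limma adjusted p = 5.18e-05). With all 32 arrays the difference was 2.77 ± 0.97 and was not called (limma adjusted p = 0.706). Wipi1 ranged from 4.55 to 9.69 on the 3 EoM BM arrays, mature eosinophils that share the estimate of spread, and with the 22 progenitor arrays alone the adjusted p was 2.69e-08.

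Gp5, a subunit of the platelet receptor for von Willebrand factor, was at 4.84, 4.84 and 6.10 in IL5T GMP 1 to 3, 5.14 and 4.91 in IL5T GMP 4 and 5, and 6.70, 6.18 and 7.15 in WT GMP 1 to 3. IL5T GMP 3 came within 0.1 of the lowest WT array and the others lay lower. Within v2.0 Gp5 was at least 2.38-fold lower (difference -1.65 ± 0.22, limma adjusted p = 0.0167), and with all arrays it was not called (adjusted p = 0.3). Cavin2, which coats caveolae, was at least 2.08-fold lower within v2.0 (limma adjusted p = 0.0448), and IL5T GMP 3 at 6.22 lay within the WT range of 6.01 to 6.83.

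Plau, the urokinase-type plasminogen activator, was at 7.94 and 8.14 in IL5T GMP 4 and 5 and at 9.02, 8.82 and 9.07 in WT GMP 1 to 3, a difference of -0.93 ± 0.13 (limma adjusted p = 0.0248 within v2.0). The v1.1 arrays read 6.83 to 7.93 as measured, and in IL5T CMPs v1.1 also read lower (mean 6.01 against 6.52). With all arrays Plau differed by -0.92 ± 0.28 and was not called (limma adjusted p = 0.462). Rpp14, a subunit of ribonuclease P, was at 9.40, 9.52 and 9.90 in IL5T GMP 1 to 3, 9.66 and 9.77 in IL5T GMP 4 and 5, and 10.62, 10.67 and 10.46 in WT GMP 1 to 3. The groups were apart by -0.87 ± 0.13 within v2.0 (limma adjusted p = 0.0441) and by -0.97 ± 0.20 with all arrays (adjusted p = 0.0529). In EoPs Rpp14 differed by -1.02 and in CMPs by -0.96. Ooep, an oocyte gene at background in WT GMPs, was at 5.67 and 5.45 in IL5T GMP 4 and 5 and at most at 4.95 on v1.1.

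No receptor or STAT5 gene on the lists passed the test. Il5ra was undetected on all 8 GMP arrays (4.72 to 5.09), while the WT EoP arrays read 6.72 to 6.86. Of the 9 measured genes of IL-5, IL-3 and GM-CSF receptors 0 were called and 0 had an unadjusted p under 0.05, with a median of -0.06. Of all genes 0.0593% were called higher and 0.0198% lower, and 2.16% and 2.67% had an unadjusted p under 0.05 in those directions. A count of 0 among 9 genes thus does not set the receptor genes apart. The shared beta chain Csf2rb was at 6.05, 6.17 and 5.99 in IL5T GMP 1 to 3, 6.18 and 6.89 in IL5T GMP 4 and 5, and 6.54, 6.51 and 6.73 in WT GMP 1 to 3. Its groups overlapped.

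Cish, the STAT5-induced inhibitor whose promoter is printed above, was at 7.11, 7.41 and 7.75 in IL5T GMP 1 to 3, 8.14 and 8.06 in IL5T GMP 4 and 5, and 6.97, 6.86 and 6.73 in WT GMP 1 to 3. All IL5T arrays exceeded all WT arrays, yet the difference of 1.13 ± 0.23 did not pass the test (limma adjusted p = 0.0682). Socs2, another feedback inhibitor, differed by 0.44 and the kinase gene Pim1 by 0.68, both with overlapping arrays and a limma adjusted p of 1. Over the STAT5 list 0 of 20 measured genes were called and 1 of them, Cish, had an unadjusted p under 0.05, against 2.16% of all genes in that direction, and the median was 0.01.

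The effect of the transgene was then compared with that in EoPs, which carry the receptor. limma called a difference between the effects in GMPs and EoPs for 788 probes (3.26%), while the transgene itself changed 1764 probes (7.30%) in EoPs and 18 (0.0745%) in GMPs. Epx, Prg3 and Ear3 were called in GMPs and not in EoPs, where they were near the top of the scale in both genotypes. Epx changed by -0.06 ± 0.79 in EoPs, and the difference between the effects was 5.81 (limma adjusted p = 0.00356). For Prg3 it was 5.04 (adjusted p = 0.00784), for the Ear3 probes 6.52 (adjusted p = 3.2e-05) and 5.13 (adjusted p = 0.0196), and for Ldhc 2.70 (adjusted p = 0.00893).

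Map3k14 rose by 0.65 in GMPs and fell by 0.81 in EoPs, a difference of 1.46 (limma adjusted p = 1.46e-05). Socs2 rose by 2.91 ± 0.24 in EoPs, and its difference between the effects was -2.47 (limma adjusted p = 0.000126). Cish rose by 2.24 ± 0.23 in EoPs, and the difference from GMPs of -1.11 did not pass (adjusted p = 0.0612). Bcl2a1b rose by 3.04 ± 0.36 in EoPs and Rasl11b by 1.84 ± 0.29, with no call for a difference from GMPs (adjusted p = 0.359 and 0.86). Wipi1 was called in EoPs as well (limma adjusted p = 0.0057). It was undetected on all 3 WT EoP arrays (4.86 to 4.93), read 8.89 to 9.50 on the IL5T EoP arrays, and was at least 13-fold higher there.

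Expressed as a share of the mean linear level in EoPs of the same genotype, on v2.0 arrays, Epx reached 26.7% in IL5T GMPs and 1.12% in WT GMPs. Prg3 reached 25.3% in IL5T GMPs and 1.72% in WT GMPs, and Prg2 83.8% and 23.4%. The Ear3 probe ILMN_1219174 reached 30.5% and 0.322%, and the second Ear3 probe 119% and 8.28%. Ldhc, as abundant as 12.85 to 13.21 in IL5T EoPs, reached 2.26% in IL5T GMPs and 0.474% in WT GMPs. Prg2, Epx, Prg3 and both Ear3 probes lay close to the highest normalized value of 14.7 in EoPs, where levels are compressed. Their shares were therefore not set against those of the other genes. The second Ear3 probe was near that value in IL5T GMPs too (mean 14.06 on v2.0, against 13.80 in IL5T EoPs), so its 119% does not rank GMPs above EoPs. Il5ra was detected on 2 of 3 IL5T EoP arrays. The part that EoPs left in the GMP gate have in these levels was not tested.

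**Figure D3:**
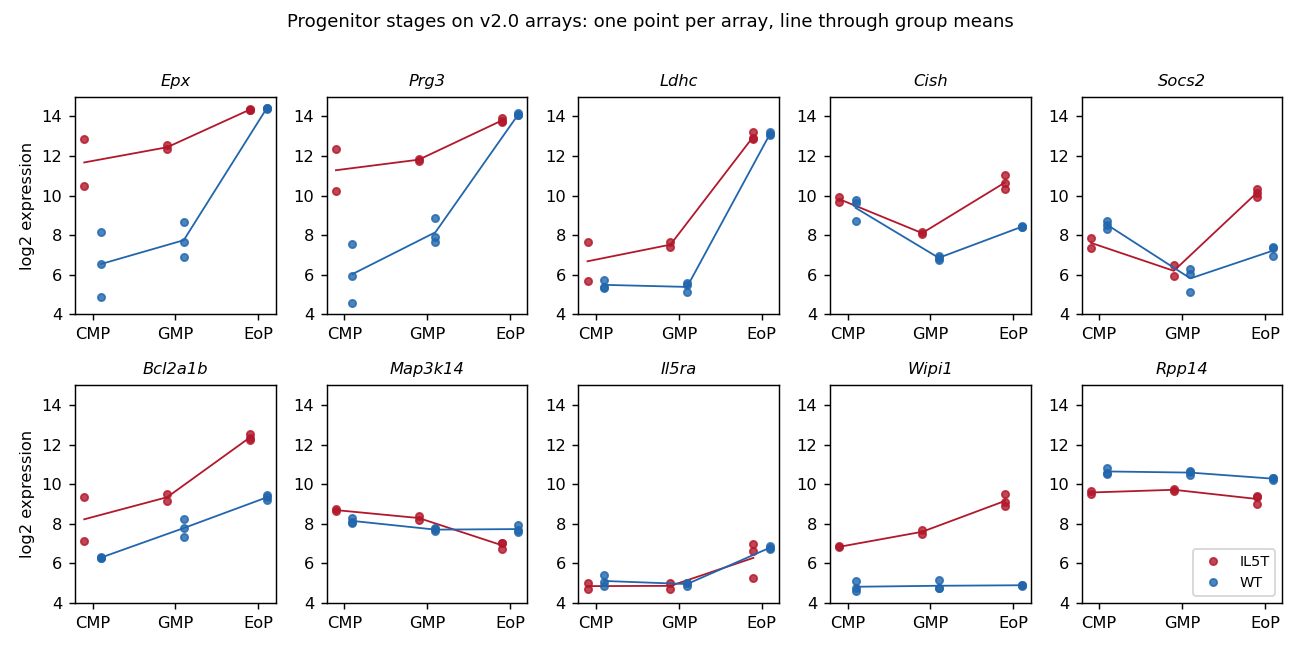
Normalized log2 expression (y axis) of 10 genes in CMPs, GMPs and EoPs (x axis) on v2.0 arrays, with IL5T in red, WT in blue, 1 point per array and lines through the group means. Epx and Prg3 are apart by genotype in CMPs and GMPs and meet in EoPs (Epx 14.32 to 14.43), whereas Socs2 separates the genotypes most in EoPs and Wipi1 at all 3 stages.

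Between GMPs and CMPs the effect of the transgene differed for 23 probes (0.0952%). Epx, Prg3 and ILMN_1219174 of Ear3 rose in CMPs too, by 4.09 ± 0.80, 4.19 ± 0.76 and 4.76 ± 0.57 (limma adjusted p = 0.00898, 0.00427 and 3.1e-05), and none of them was called for a difference from GMPs. As measured, both v2.0 arrays of IL5T CMPs exceeded all WT CMPs, but the v1.1 arrays overlapped WT. They read 5.7 to 8.5 against 4.9 to 8.2 for Epx, and 5.2 to 7.3 against 4.6 to 7.6 for Prg3. For the Ear3 probe they read 5.7 to 5.9 against 4.6 to 6.5. For these arrays the fitted rise rests on the version term. On v2.0 alone the effect on Epx was 0.44 smaller in GMPs than in CMPs (difference -0.44, limma adjusted p = 0.974), against 1.66 larger with all arrays (adjusted p = 1). Azin2, an activator of polyamine synthesis, was undetected on all WT CMP and WT GMP arrays, and on v2.0 it was at least 3.58-fold higher in IL5T CMPs. Cd28, the costimulatory receptor of T cells, was undetected in WT CMPs and at least 4.6-fold higher in IL5T CMPs on v2.0. The fitted differences between the effects in GMPs and CMPs were -1.50 (limma adjusted p = 0.00464) and -2.11 (adjusted p = 3.68e-05), and their sizes rest on background values. Ermap, an erythroid surface protein, and Slamf1, a receptor of stem and immune cells, were lower in IL5T CMPs (differences of -3.14 and -1.71). The differences between the effects were 2.43 (limma adjusted p = 0.00207) and 1.62 (adjusted p = 0.00595). Ermap was undetected in IL5T GMPs and Slamf1 in GMPs of both genotypes, so these sizes rest on background values too.

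Among the gene lists of other lineages 0 genes were called higher or lower, against 0.0593% and 0.0198% of all genes. The primary granule genes Mpo, Elane, Prtn3 and Ctsg read 13.68 to 14.54 on all 8 arrays, so close to the highest normalized value that differences could be compressed. Of 10 measured genes of their list 0 had an unadjusted p under 0.05, against 2.16% of all genes higher and 2.67% lower. Kit was at 12.19 to 12.58. Of 8 measured megakaryocyte and platelet genes 3 were lower at an unadjusted p under 0.05 (Pf4, Gp5 and Vwf), against 2.67% of all genes, with a median of -0.34.

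Pf4, the platelet chemokine, was at 6.12, 4.87 and 6.81 in IL5T GMP 1 to 3, 7.84 and 5.76 in IL5T GMP 4 and 5, and 9.95, 8.67 and 9.95 in WT GMP 1 to 3. Every IL5T array lay below every WT array, but the difference of -2.28 ± 0.49 was not called (limma adjusted p = 0.0965; adjusted p = 0.0371 without WT GMP 2). Vwf, von Willebrand factor, was at least 2.09-fold lower within v2.0 (limma adjusted p = 0.1). On v1.1 it was detected on all 3 IL5T arrays at 5.78 to 6.44, which overlapped the WT range of 6.09 to 6.72. With all arrays it differed by -1.28 and was not called (limma adjusted p = 0.767). The summed level of the megakaryocyte list was 8.28 to 9.12 in IL5T GMPs and 9.71 to 10.56 in WT GMPs.

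**Figure D4:**
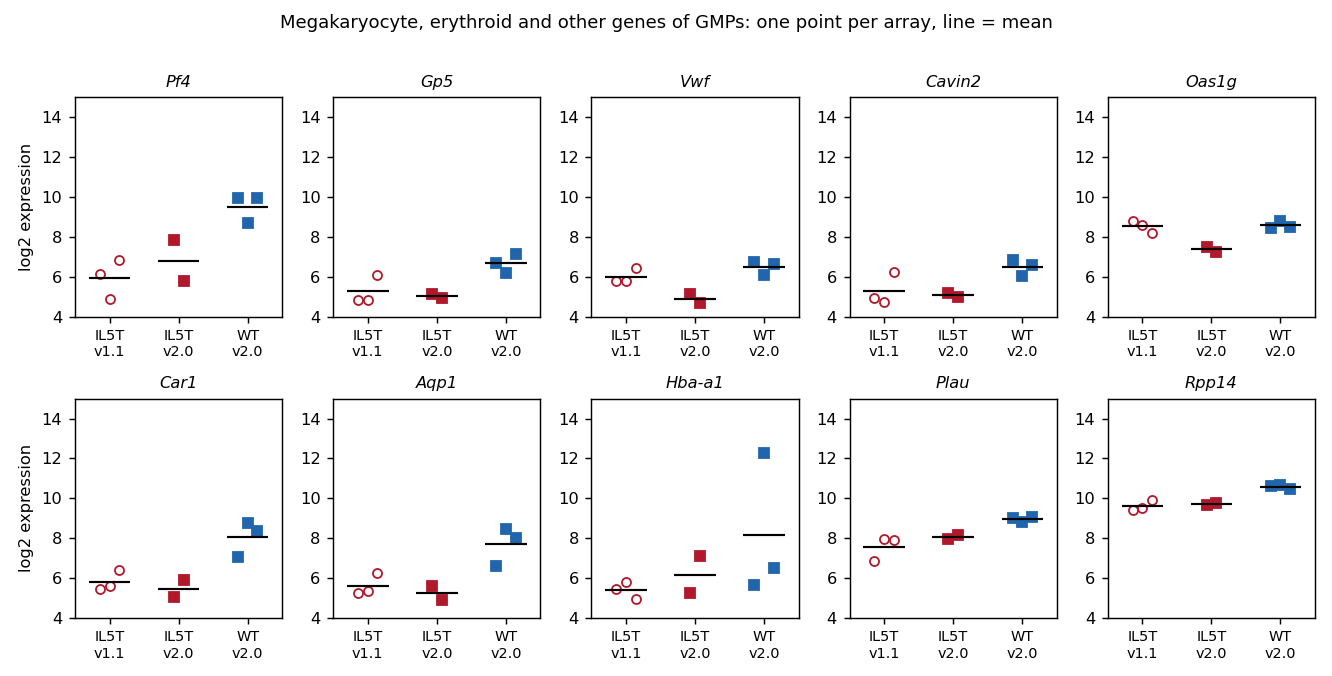
Normalized log2 expression (y axis) of 10 genes on each GMP array, for IL5T arrays on v1.1 and v2.0 and WT arrays on v2.0, with 1 point per array and a line at the mean. Pf4 is lower on all IL5T arrays (at most 7.84) than on WT arrays (at least 8.67), and Hba-a1 is high on WT GMP 2 alone (12.26).

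Of 14 measured erythroid genes 4 were lower and 1 was higher at an unadjusted p under 0.05, against 2.67% and 2.16% of all genes, with a median of -0.50 that became 0.07 without WT GMP 2. Car1, a carbonic anhydrase of early erythroid cells, was at 5.43, 5.60 and 6.39 in IL5T GMP 1 to 3, 5.02 and 5.89 in IL5T GMP 4 and 5, and 7.03, 8.76 and 8.34 in WT GMP 1 to 3. The groups did not overlap, and the difference of -2.38 ± 0.69 was not called (limma adjusted p = 0.37). Alpha globin (Hba-a1) was at 12.26 in WT GMP 2 and at 4.93 to 7.08 on the other 7 arrays. The same WT array was the highest of its group for the granule genes, and the part of its other cells in these levels was not tested.

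Among neutrophil specific granule genes 3 of 14 (Retnlg, Ngp and Olfm4) were higher at an unadjusted p under 0.05, against 2.16% of all genes, with a median of 0.22. Retnlg, a resistin-like protein, was at 5.66, 6.95 and 5.83 in IL5T GMP 1 to 3, 7.72 and 9.79 in IL5T GMP 4 and 5, and 4.75, 6.65 and 4.53 in WT GMP 1 to 3. IL5T GMP 5 and, among WT arrays, WT GMP 2 were the highest, the groups overlapped as measured, and the gene was not called (difference 3.28 ± 0.96, limma adjusted p = 0.391). Of 9 measured MHC class II and costimulation genes 2 were higher at that level, against the same 2.16%. H2-Eb1 differed by 1.78 ± 0.45 (limma adjusted p = 0.208) and Cd74, the invariant chain, by 1.89 ± 0.70 (adjusted p = 0.765).

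Of 18 measured eosinophil surface and lineage genes 4 were higher at an unadjusted p under 0.05 (P2ry14, Adgre1, Alox15 and Muc13), against 2.16% of all genes, 0 were called, and the median was 0.17. P2ry14, a receptor for UDP-sugars, was at 9.69, 9.62 and 9.84 in IL5T GMP 1 to 3, 9.75 and 9.91 in IL5T GMP 4 and 5, and 8.91, 9.48 and 8.95 in WT GMP 1 to 3. Its groups were apart by 0.73 ± 0.16 with no call (limma adjusted p = 0.1). Siglecf and Ccr3, surface markers of mature eosinophils, were undetected on all 8 arrays. The medians of the lists for DNA replication, mitosis, ribosome biogenesis and oxidative phosphorylation lay between -0.16 and -0.07, with 0 genes called.

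**Figure D5:**
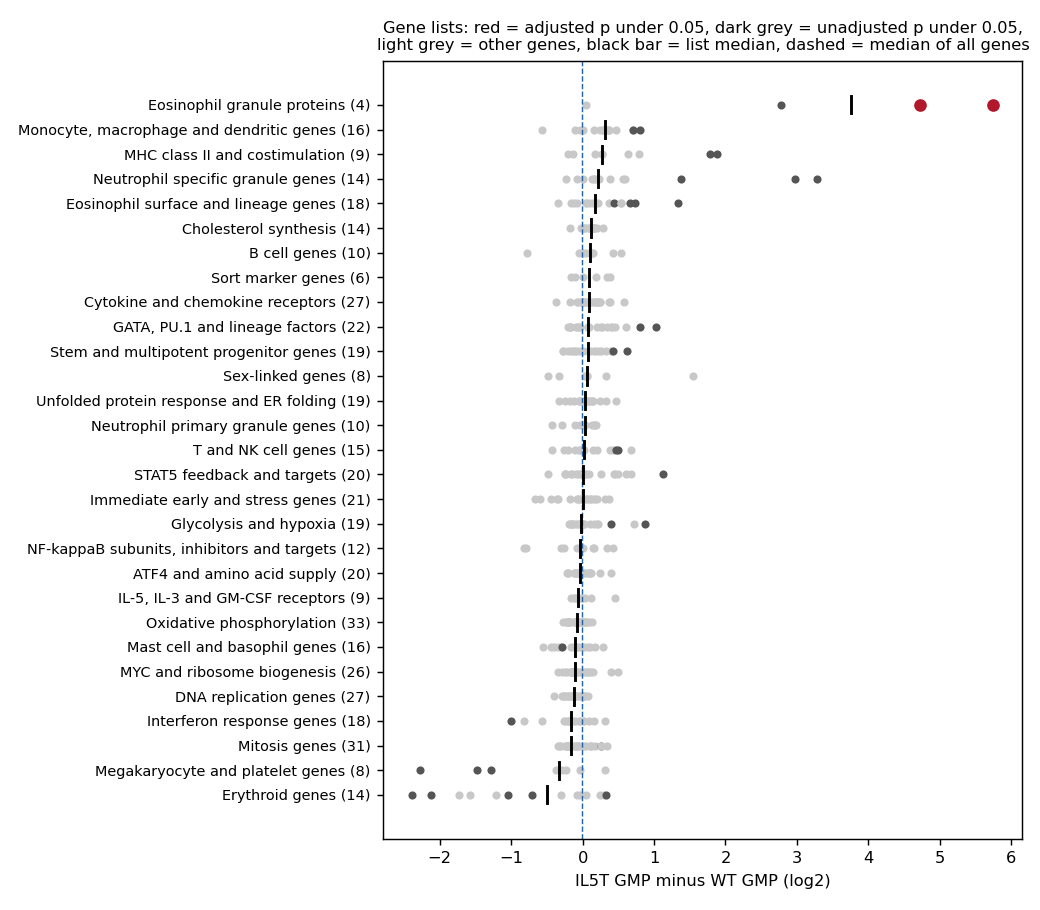
Fitted difference of IL5T GMP minus WT GMP (x axis, log2) of each measured gene of 29 lists (y axis, number of genes in brackets), with list medians as black bars and the median of all genes dashed. The granule list has the highest median (3.75) and its 2 called genes, Epx and Prg3, are the only called genes of any list.

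Sex-linked genes differed between the pools. The Y-linked Eif2s3y read 8.28 to 10.74 on all 8 arrays, and Xist read 10.29, 9.61, 5.17, 10.60 and 4.60 in IL5T GMP 1 to 5 and 4.56, 8.31 and 4.75 in WT GMP 1 to 3. Both genotypes thus held arrays high and low in Xist, and the part of sex in the results was not tested. Il5 itself was undetected on all 8 arrays (4.57 to 5.37).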

How the data were processed

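The authors deposited the scanner intensity of every probe, with a detection p-value (authors, against negative controls), and deposited log2 values made by normexp correction and quantile normalization. From the intensity, normexp was repeated with limma 3.58.1 in R 4.3.3 (negative controls inferred from detection p-values, per beadchip version, offset 16), and 24159 shared probes were quantile normalized over 32 arrays. The result differed from the deposited log2 values by at most 0.16. lmFit and eBayes took a mean per group (9 groups) and a version term (22 residual degrees of freedom), two-sided, with Benjamini-Hochberg adjustment at 0.05. Platform symbols were updated through RefSeq, which named 21157 probes and 15187 genes, each represented by its brightest probe, and 2855 probes had no gene listed. Named genes are those called, the 10 largest positive and negative uncalled differences with unadjusted p under 0.01, called interaction genes and list members. The text prints a selection. The members and lists were chosen with earlier results of these data known. The model was run on data simulated with its own version term and independent noise. Such data cannot test whether CMPs and GMPs share a version shift. Alternatives varied normalization, version term, arrays, weights, filters, replicate block, threshold and each array left out. Plots used matplotlib 3.10.9 in Python 3.11.15.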

Additional observations from a re-analysis of the deposited data

Results flagged for a closer look

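Among 57 probes examined for a single IL5T GMP array far from the other 4, 3 had one, with the version shift removed: H2-Eb1 was lowest in IL5T GMP 4 at 6.09 (next 6.93), Gp5 highest in IL5T GMP 3 at 6.15 (next 5.15) and Slc45a3, a solute carrier, highest in IL5T GMP 3 at 7.49 (next 6.80). Chance alone gives such an array in about 1 in 20 groups.

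The effect of the transgene differed between GMPs and EoPs, by limma's test of the difference, for Epx (5.81), Prg3 (5.04), the Ear3 probes (6.52 and 5.13), Ldhc (2.70), Map3k14 (1.46), Stx3 (0.96, adjusted p = 0.0287), Sstr2 (1.21, adjusted p = 0.0348) and Socs2 (-2.47). A further 4 genes were called in EoPs and differed by 0.29 or less in size between IL5T and WT GMPs. Dgkk, a diacylglycerol kinase, fell in EoPs and had a difference of 3.43 (limma adjusted p = 2.56e-11). Mfsd2a, a lipid transporter, had one of -3.72 (adjusted p = 2.72e-08), Dhrs9, a retinol dehydrogenase, -2.92 (adjusted p = 6.45e-08) and Slamf9 -3.74 (adjusted p = 0.000234). Dgkk and Dhrs9 were undetected on all GMP arrays and Mfsd2a on all but 1, and Dhrs9 was undetected in WT EoPs as well, so the sizes for these 3 rest on background values and are no bounds.

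Between GMPs and CMPs the effect differed for Azin2 (-1.50), Cd28 (-2.11), Ermap (2.43) and Slamf1 (1.62), each with at least 1 of the 4 groups undetected, so that the sizes rest in part on background values.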

How the results depend on the processing

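The 18 calls became 33 with median scaling (17 higher, 16 lower), 41 with quantile normalization within versions (25 and 16), 44 with array weights, 46 with no version term (12 and 34), 3 with IL5T GMP, WT GMP and IL5T CMP arrays alone, 31 at a threshold of 0.1 and 7 at 0.01, and 11 within v2.0. Leaving out single arrays gave 9 (WT GMP 3) to 33 (IL5T CMP 5) calls, with 10 without IL5T GMP 4 or IL5T CMP 3. The 11 calls within v2.0 became 7 with the 5 GMP arrays alone and 4 (without WT GMP 3) to 9 with 1 array left out, with 5 without IL5T GMP 5 and 6 without WT GMP 1. The 788 probes that differed between GMPs and EoPs became 1504 with median scaling (303 and 1201, against 352 and 436) and 508 (without IL5T GMP 5) to 735, with 521 without WT GMP 2. The 23 that differed between GMPs and CMPs became 15 with the deposited values, 68 with median scaling, 6 on v2.0 and 11 to 29 with 1 array left out (11 without IL5T GMP 3, 12 without WT GMP 1, 14 and 15 without IL5T GMP 1 and 2, 15 without WT GMP 3). The 2 with another version shift became 0 with the deposited values and 0 to 16 with 1 array left out (0 without IL5T CMP 2, 9 and 16 without IL5T GMP 5 and 4). The causes were not tested.

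Replicate numbers did not pair the samples (correlations of deviations -0.122, 0.023 and -0.154). With the replicate number as a block the calls were 5, and 59 against EoPs and 13 against CMPs, a fit added after seeing the data for both. Under the block Il5 changed to -0.27, and the GMP to EoP difference to 0.11 for Rasl11b and 2.15 for Wipi1.

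Direction also turned for genes near 0: Fcgr2b (-0.22) and Kit (-0.30) with median scaling, Kit within v2.0 (-0.008) and between -0.081 and -0.006 without 1 of 7 arrays, Il5 with no version term (-0.08) and Csf2rb without IL5T GMP 4 (0.135) or WT GMP 3 (0.012), in a range of -0.245 to 0.135. Without WT GMP 2 Hba-a1 became 0.33 (range with 1 array left out -2.974 to 0.33) and the erythroid median 0.067 (range -0.627 to 0.067), and on v2.0 the GMP to CMP difference of Epx became -0.44. Among the other values of named genes and of list medians 1621 were unchanged, 177 lost and 54 gained a call, and 7 list medians moved. Unchanged meant the same direction and side of the threshold for a gene. For a list median it meant the same direction and a shift smaller than the SD of the medians of WT arrays.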
